A study of Mus musculus with 4 samples.

Results

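Interleukin-1 (IL-1) and interleukin-33 (IL-33) are cytokines of 1 family. The genes described here are 10 of the 45802 gene symbols listed for these libraries. They are the ligands *Il1a*, *Il1b* and *Il33*, the receptor antagonist *Il1rn*, and the receptor genes *Il1r1*, *Il1r2*, *Il1rap* and *Il1rl1*. With them are the genes of IκBα and IκBζ, *Nfkbia* and *Nfkbiz*. These 10 genes were chosen by name, with earlier results of these data known. All 10 are in the table, 8 with a value in each of the 4 libraries and 2, *Il1a* and *Il1b*, without a value in any. Both populations came from the femurs and tibias of male Pdgfrα-mTmG mice 9 to 10 weeks old that had received tamoxifen (150 mg/kg per day for 5 d) and were analyzed 14 d later. In these animals the *Pdgfra* promoter drives an inducible Cre, which switches membrane tdTomato to membrane GFP, so that the reporter records Cre activity at the time of tamoxifen and not the PDGFRα level at sorting. Cells were grown for 1 passage in medium with bFGF, a fibroblast growth factor, at 10 ng/mL, and those without CD31, CD45 and Ter119 were sorted into PDGFRα reporter+ (mGFP+) and PDGFRα reporter- (mTdtomato+) cells, with 2 libraries of each and with 3 to 6 mice pooled for each, according to the labels (the methods give a different number). Libraries carry the number 2 or 3 in the table headings and are named by it here, since the labels number replicates 1 and 2.

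In this pathway, IL-1α and IL-1β bind the receptor IL-1R1, which recruits the accessory chain encoded by *Il1rap* and signals through MyD88 and IRAK kinases to NF-κB and AP-1. The antagonist encoded by *Il1rn* occupies the receptor without signaling, and *Il1r2* encodes a decoy receptor. IL-33 is kept in the nucleus of stromal and barrier cells, is released on damage, and binds ST2 (the product of *Il1rl1*) together with the same accessory chain. *Nfkbia* and *Nfkbiz* encode IκBα and IκBζ, which NF-κB itself induces. In bone, IL-1 is known as a stimulus for osteoclast formation.

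For 9 of the 10 genes, RefSeq start sites on GRCm38.p6 gave 14 windows of 250 bases upstream of a start (*Nfkbiz* had none). Each window was searched on both strands for the NF-κB consensus of 10 bases and for the AP-1 motif TGANTCA. The NF-κB consensus was found in 2 of the 14 windows, compared with 7.25% of all 32851 windows of this length, and the AP-1 motif in 2, compared with 6.75%. The 3 windows that hold a match and belong to a gene with values are shown 5′ to 3′ with the match in capitals, since NF-κB and AP-1 are the end points of IL-1 signaling. The *Nfkbia* window (minus strand, chr12:55492648-55492897) has an NF-κB match that begins 29 bases before the start. The window of the second *Il1r1* start (plus strand, chr1:40266336-40266585) has one that begins 232 bases before it. The window of the first *Il1rn* start (plus strand, chr2:24336610-24336859) has an AP-1 match that begins 141 bases before it. The fourth match, also of AP-1, lies upstream of *Il1a*. No 2 matches overlap in these windows.
Nfkbia: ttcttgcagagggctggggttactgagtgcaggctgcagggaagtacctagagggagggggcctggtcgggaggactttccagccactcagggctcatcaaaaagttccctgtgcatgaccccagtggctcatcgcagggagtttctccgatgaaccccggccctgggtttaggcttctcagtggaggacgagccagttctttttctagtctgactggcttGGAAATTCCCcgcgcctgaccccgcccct
Il1r1: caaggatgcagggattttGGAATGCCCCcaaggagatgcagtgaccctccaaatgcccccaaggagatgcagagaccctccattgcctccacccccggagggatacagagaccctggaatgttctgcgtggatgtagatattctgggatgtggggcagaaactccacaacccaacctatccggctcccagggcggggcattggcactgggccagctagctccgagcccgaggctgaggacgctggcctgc
Il1rn: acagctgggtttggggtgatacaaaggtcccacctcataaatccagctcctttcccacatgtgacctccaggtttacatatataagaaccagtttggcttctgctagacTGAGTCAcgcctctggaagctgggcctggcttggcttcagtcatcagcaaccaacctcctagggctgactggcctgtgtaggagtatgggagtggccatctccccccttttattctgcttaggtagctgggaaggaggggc

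Values were quantile normalized log2 signals, so that every library had its median at 1.48 and its quartiles at -1.47 and 3.00, and 15423 to 15605 genes had a value. The linear unit is not stated, so that levels of a gene are compared between libraries, and those of different genes are not compared for abundance. Sums of linear levels over marker genes serve only to compare libraries. Sequencing depth is unknown, and no counting error or detection limit can be given. Tests were made with limma on 14415 genes, those without a blank. No gene of that table passed an adjusted p of 0.05 (0% called), beside 131 genes (0.909%) with an unadjusted p under 0.05, and 29 (0.201%) passed when the heading number was added to the model. With 2 libraries a population, the smallest p of an exact two-sided permutation test for a single gene is 0.333. Fibroblast genes had values in all libraries, with *Pdgfra* from 7.44 to 7.87 and *Col1a2* from 8.47 to 9.07. Of the 10 examined, 2 were higher in PDGFRα reporter+ cells without overlap (*Lum* by 1.83 and *Dcn* by 1.39) and 0 lower. Of all genes tested, 7.59% were higher and 8.10% lower without overlap. Within both numbers 3 of the 10 were higher and 5 lower, *Postn* among the latter (-1.14), beside 22.1% and 24.8% of all genes. The libraries also held macrophage transcripts, although cells with CD45 had been sorted out. *Lyz2* lay at 7.65 and 7.88 in the PDGFRα reporter+ libraries and at 6.27 and 7.25 in the PDGFRα reporter- libraries. In total RNA of sorted cells, fewer cells of a type and less RNA per cell cannot be told apart.

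The comparison of PDGFRα reporter+ with PDGFRα reporter- cells asks whether the reporter separates cells that differ in this pathway. None of the 8 members with values separated the populations. The range of each gene in one population overlapped that in the other, whereas 15.7% of all genes tested did not overlap (7.59% higher and 8.10% lower in PDGFRα reporter+ cells). No member passed the limma test, at an adjusted p of 1 for each, none passed with the heading number in the model, and none of the 8 without it had an unadjusted p under 0.05. With it, *Il33* alone did (limma, unadjusted p = 0.00155, adjusted p = 0.176), as did 6.33% of all genes, and without a variance trend its p in this limma model was 0.05305. The log2 differences (PDGFRα reporter+ minus PDGFRα reporter-) ran from -0.11 to 0.70 with a median of 0.21, beside -0.0035 over all genes tested. *Il33*, *Il1r1* and *Il1r2* were higher in PDGFRα reporter+ cells within both numbers, as were 22.1% of all genes. The other 5 members had opposite signs within the numbers, as did 53.1% of all genes.

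**Figure D1:**
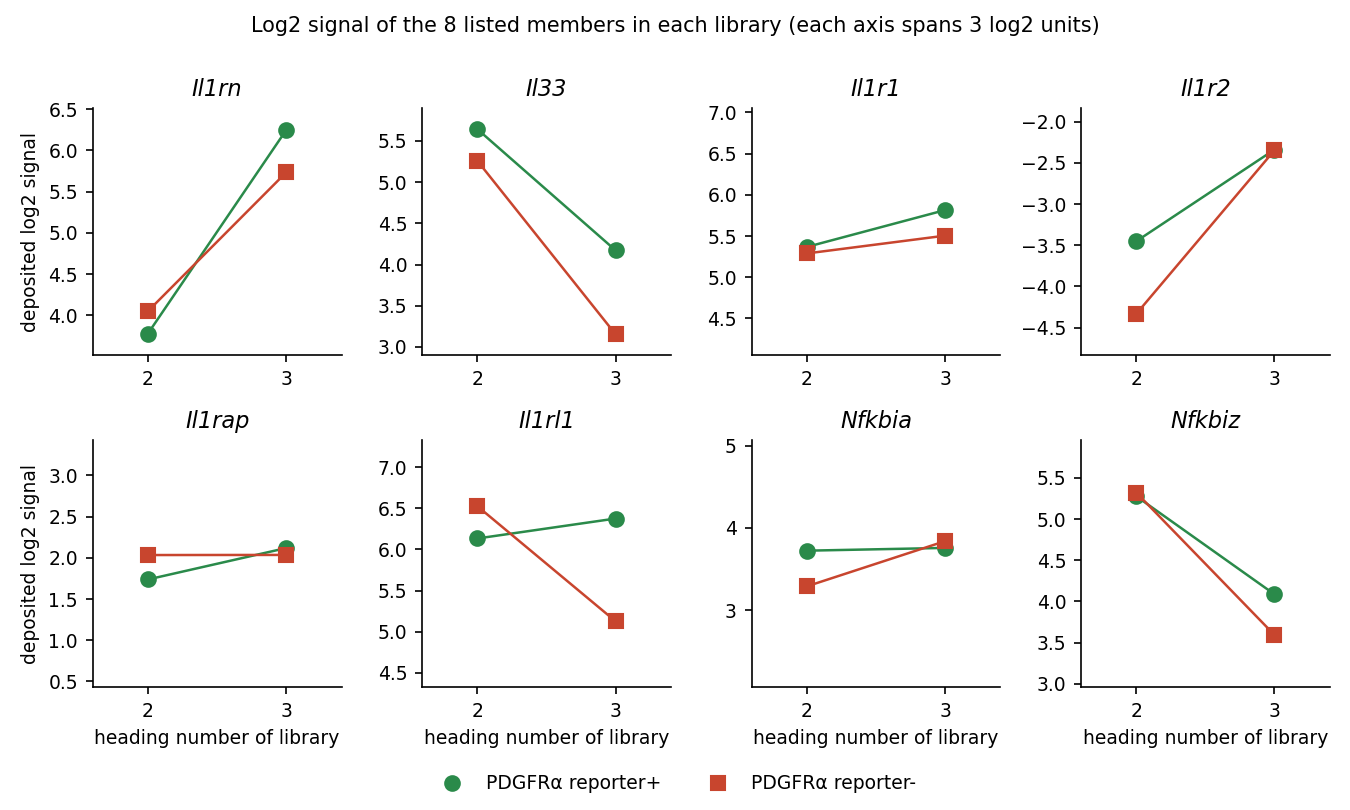
Deposited log2 signal (y axis, each panel spanning 3 log2 units) of the 8 members with values, by heading number (x axis), with circles for PDGFRα reporter+ and squares for PDGFRα reporter- libraries and 1 point per library. *Il1rn* and *Il1r2* lie higher and *Il33* and *Nfkbiz* lower in both libraries numbered 3, and the populations overlap in each panel.

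Among the ligands, *Il1a* (chromosome 2, 129299610 to 129309972) and *Il1b* (chromosome 2, 129364570 to 129371139) were blank in all 4 libraries, as were the genes overlapping them, *Gm14023* and *Il1bos*. A blank says that the table lists no signal, not that the transcript was absent. No fold was computed for either gene.

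*Il33* (chromosome 19, 29925114 to 29960718) had log2 values of 5.64 in PDGFRα reporter+ library 2, 4.17 in PDGFRα reporter+ library 3, 5.26 in PDGFRα reporter- library 2 and 3.15 in PDGFRα reporter- library 3. Both libraries numbered 2 were thus above both numbered 3, and within each number the PDGFRα reporter+ library was the higher. Mean and SD of the 2 libraries were 4.91 ± 1.04 for PDGFRα reporter+ and 4.21 ± 1.49 for PDGFRα reporter- cells. The log2 difference of 0.70 (SE 0.87, 95% interval -1.61 to 3.01) was the largest of the members and smaller than the spread between libraries. It was made up of 0.38 within number 2 and 1.02 within number 3. Endothelial cells, which the sort against CD31 was to remove, are a known source of IL-33, and the 10 endothelial markers examined had summed linear levels of 1.75 and 1.69 in PDGFRα reporter+ and 3.36 and 4.46 in PDGFRα reporter- libraries. Of the 8 endothelial markers with all values, 7 were lower in PDGFRα reporter+ cells within both numbers, beside 24.8% of all genes. Without *Erg*, the sums were 0.430 and 1.51 against 1.41 and 4.25. The part of endothelial transcripts in the *Il33* values was not tested.

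*Il1rn*, the gene of the receptor antagonist (chromosome 2, 24336853 to 24351494), whose first upstream window is printed above, had log2 values of 3.78 and 6.25 in PDGFRα reporter+ libraries 2 and 3 and of 4.05 and 5.73 in PDGFRα reporter- libraries 2 and 3. The values of the PDGFRα reporter- libraries lay between those of the PDGFRα reporter+ libraries. The log2 difference between populations was 0.12 (SE 1.01, 95% interval -2.56 to 2.80), with -0.27 within number 2 and 0.51 within number 3. GENCODE M21 gives complete coding transcripts of *Il1rn* that encode 178, 162, 159 and 52 amino acids, and the secreted and intracellular forms of the antagonist are not separated by a value per gene symbol. Macrophages also make this antagonist. Of the 14 macrophage markers with all values, 12 were higher in PDGFRα reporter+ cells within both numbers and 0 were lower, beside 22.1% and 24.8% of all genes. The summed linear level of all 15 was 249.6 and 293 in PDGFRα reporter+ libraries 2 and 3 and 99.8 and 188 in PDGFRα reporter- libraries 2 and 3, and without *Lyz2* it was 49.1, 58.0, 22.8 and 35.2. No macrophage marker was blank in all libraries. Their part in the values of *Il1rn* was not tested.

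*Il1r1*, the gene of the signaling receptor of IL-1 (chromosome 1, 40225080 to 40317257), had log2 values of 5.37 and 5.81 in PDGFRα reporter+ libraries 2 and 3 and of 5.29 and 5.50 in PDGFRα reporter- libraries 2 and 3. Within each number the PDGFRα reporter+ library was above the other, by 0.08 for number 2 and by 0.31 for number 3. The log2 difference was 0.19 (SE 0.21, 95% interval -0.38 to 0.77), between the SD of the PDGFRα reporter- libraries (0.15) and that of the PDGFRα reporter+ libraries (0.32). *Il1rap*, the shared accessory chain (chromosome 16, 26581704 to 26730117), had 1.74 and 2.12 in PDGFRα reporter+ libraries 2 and 3, and 2.03 and 2.04 in PDGFRα reporter- libraries 2 and 3. It was the only member with a mean lower in PDGFRα reporter+ cells (log2 difference -0.11, SE 0.21), with -0.30 within number 2 and 0.08 within number 3. Its coding transcripts in GENCODE encode 685, 640, 570 and 360 amino acids, among which membrane and soluble forms are known, and the table does not separate them.

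*Il1r2*, the decoy receptor (chromosome 1, 40074079 to 40125231), lay below the lower quartile of the scale in each library. Its log2 values were -3.45 and -2.34 in PDGFRα reporter+ libraries 2 and 3 and -4.33 and -2.35 in PDGFRα reporter- libraries 2 and 3. The difference between populations was 0.88 within number 2 and 0.0081 within number 3, so that the log2 difference of 0.44 (SE 0.91) rested on the libraries numbered 2. With a pseudocount of 1 on the linear value it was 0.0288. *Il1r2* is known in neutrophils, which the sort against CD45 was to remove. Of the 10 neutrophil markers examined, 1 had a value in all libraries. Their summed linear levels were 0.379 and 4.16 in PDGFRα reporter+ libraries 2 and 3 and 0.331 and 1.08 in PDGFRα reporter- libraries 2 and 3. Without *S100a8* the sums were 0.325 and 1.53 against 0.331 and 0.623. Both sums were higher in the libraries numbered 3, while *S100a9*, *Retnlg* and *Ngp* had no value in any library. The gene with all values, *Camp*, was higher in number 3 without overlap, as were 36.4% of all genes. It had -1.675 and 0.51 in PDGFRα reporter+ libraries 2 and 3 and -1.85 and -0.87 in PDGFRα reporter- libraries 2 and 3. *Elane* went the other way in PDGFRα reporter- libraries 2 and 3 (-4.24 and -5.31) and was blank in the others. The part of neutrophil transcripts in the *Il1r2* values was not tested.

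*Il1rl1*, the gene of the IL-33 receptor ST2 (chromosome 1, 40429570 to 40465415), was alone among the 8 members in that its difference between numbers had opposite signs in the populations. Its log2 values were 6.13 and 6.37 in PDGFRα reporter+ libraries 2 and 3, and 6.52 and 5.13 in PDGFRα reporter- libraries 2 and 3. PDGFRα reporter- library 3 was the low one, and the other 3 libraries lay within 0.392 of each other. The difference between populations was -0.39 within number 2 and 1.25 within number 3, with a log2 difference of 0.43 (SE 0.50, 95% interval -0.89 to 1.75) overall. The complete coding transcripts of *Il1rl1* in GENCODE encode a form of 567 and a form of 337 amino acids, which are known as the membrane receptor and the soluble decoy, and the table does not separate them. Mast cells, which the sort against CD45 was to remove, are known for ST2. Of the 8 mast cell markers examined, *Mcpt4*, *Tpsb2*, *Tpsab1*, *Fcer1a* and *Ms4a2* had no value in any library. *Cpa3* and *Cma1* had a value in 3 libraries each and *Hdc* in 1. The summed linear level of the 8 was 0.0578 and 0.0730 in PDGFRα reporter+ and 0.0716 and 0.107 in PDGFRα reporter- libraries. The part of mast cell transcripts in the *Il1rl1* values was not tested.

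Of the IκB genes among the members, *Nfkbia* (chromosome 12, 55489410 to 55492647) has an upstream window with an NF-κB match, printed above. Its log2 values were 3.72 and 3.76 in PDGFRα reporter+ libraries 2 and 3 and 3.29 and 3.84 in PDGFRα reporter- libraries 2 and 3. PDGFRα reporter- library 2 was the low one. The log2 difference was 0.18 (SE 0.23), with 0.43 within number 2 and -0.08 within number 3. *Nfkbiz* (chromosome 16, 55811375 to 55838899) had 5.28 and 4.09 in PDGFRα reporter+ libraries 2 and 3 and 5.32 and 3.59 in PDGFRα reporter- libraries 2 and 3. Its libraries numbered 2 differed between populations by -0.04 and those numbered 3 by 0.49 (log2 difference 0.22, SE 0.71). In each population *Nfkbiz* was thus lower in library 3 and *Nfkbia* was not.

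**Figure D2:**
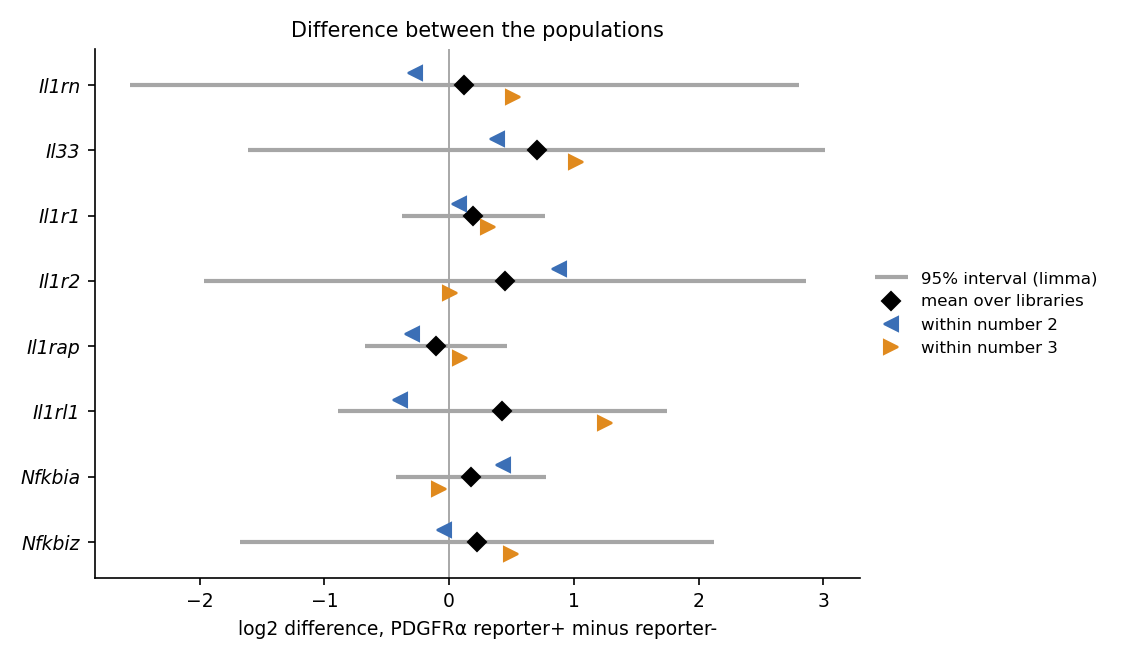
Log2 difference between PDGFRα reporter+ and PDGFRα reporter- cells (x axis) for each member (y axis), with diamonds for the mean over libraries, grey lines for the 95% interval from limma and triangles for the difference within number 2 and within number 3. Every interval spans 0, and the mean differences run from -0.11 for *Il1rap* to 0.70 for *Il33*.

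The libraries were next compared by their number within each population. What the number stands for is not given in the sources used here, so that the difference between numbers is a description, with no test. For each of the 8 members the mean difference between numbers 3 and 2 was larger than the mean difference between populations, as it was for 75.7% of all genes. The numbers did not overlap for 7 of the 8 members, 5 higher and 2 lower in number 3, beside 65.2% of all genes (36.4% higher and 28.8% lower). *Il1rn* was higher in number 3, by 2.47 among PDGFRα reporter+ and by 1.68 among PDGFRα reporter- libraries, a 4.22-fold difference on average, compared with 1.09-fold between populations. *Il1r2* was higher in number 3 by 1.11 and 1.99. *Il33* went the other way, with differences of -1.47 (PDGFRα reporter+) and -2.11 (PDGFRα reporter-), and *Nfkbiz* followed it with -1.19 and -1.73. These 4 genes were past 1 on the log2 scale on average without overlap, as were 14.2% of all genes. *Il1r1*, *Il1rap* and *Nfkbia* differed between the numbers by 0.33, 0.19 and 0.29 on average.

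**Figure D3:**
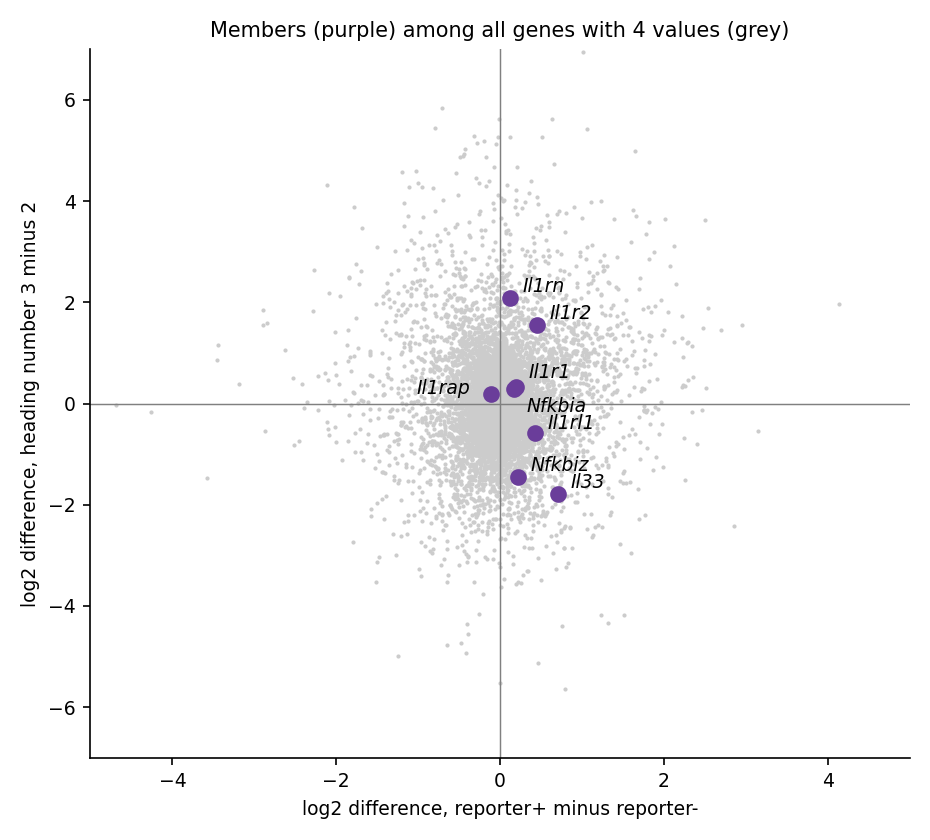
Log2 difference between populations (x axis) against log2 difference between heading numbers 3 and 2 (y axis), with 1 grey point for each of the 14415 genes with all values and purple points for the 8 members. The members stay between -0.11 and 0.70 on the x axis and run from -1.79 for *Il33* to 2.08 for *Il1rn* on the y axis.

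The receptor genes *Il1r2*, *Il1r1* and *Il1rl1* lie in 1 cluster of 6 protein-coding genes on the plus strand of chromosome 1, which spans 477627 bases from 40074079 to 40551705 and also holds *Il1rl2* (the IL-36 receptor) and *Il18r1* and *Il18rap* (the chains of the IL-18 receptor). Along the cluster, the first 3 genes (*Il1r2*, *Il1r1* and *Il1rl2*) were higher in number 3 in both populations, with 0.66 and 0.75 for *Il1rl2*. The last 2 genes were lower in number 3 in both, *Il18r1* by -1.16 and -2.01 and *Il18rap* by -0.90 and -2.05. *Il1rl1* stands between them, 136 bases before *Il18r1*, and was higher in number 3 in PDGFRα reporter+ cells (0.24) and lower in PDGFRα reporter- cells (-1.40). Except for *Il1rl1*, the numbers did not overlap for these genes. Of all genes, 36.4% were higher and 28.8% lower in number 3 without overlap. *Il1r2* and *Il18r1* lay below the lower quartile of the scale in each library. The cluster was named after its values were seen, so that this order is a description. *Il1r1*, *Il1r2*, *Il1rap* and *Il1rl2* overlap other gene models in GENCODE, and since the counting is not stated, reads may be shared between them.

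**Figure D4:**
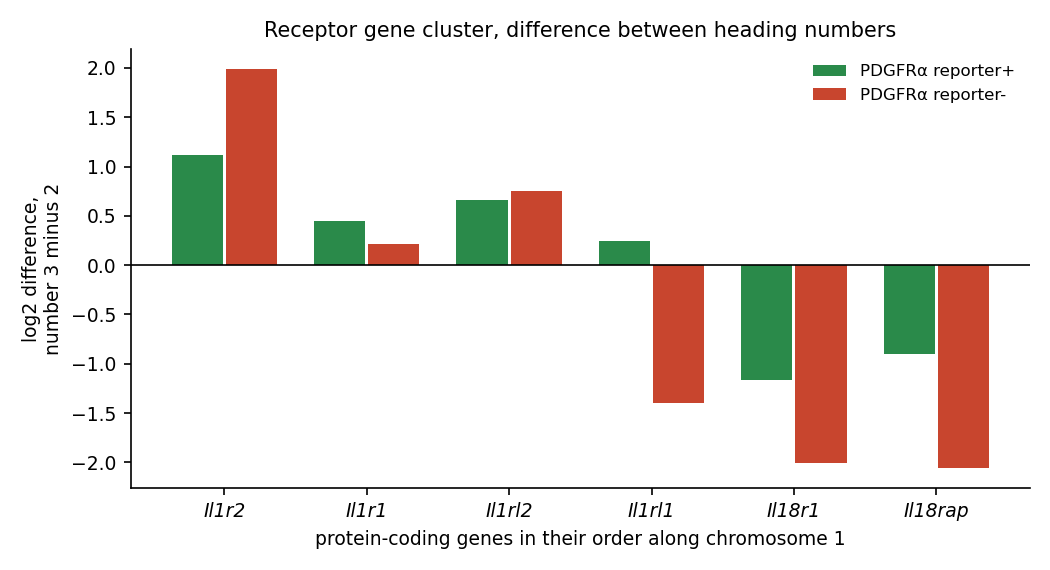
Log2 difference between heading numbers 3 and 2 (y axis) for the 6 protein-coding genes of the receptor cluster in their order on chromosome 1 (x axis), with 1 bar for each population and no error, as each bar is 1 library minus another. The bars are above 0 from *Il1r2* to *Il1rl2*, split at *Il1rl1* and below 0 at *Il18r1* and *Il18rap*.

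The genes with profiles most like those of *Il1rn* and *Il33* were found by the Euclidean distance between log2 values centered on the mean of each gene over the 4 libraries. Nearest to *Il1rn* were *Rgs5* (distance 0.112), *B3galt1* (0.116) and *P2ry14* (0.123). Nearest to *Il33* were *D430019H16Rik* (0.152), *Serpina3i* (0.237) and *Frmd5* (0.248). With 4 libraries and 14415 genes, these distances are a description of 4 values each.

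Of 25 genes between the receptors and NF-κB, all had values in each library, and none passed the limma test. Their median log2 difference was -0.02, beside -0.0035 over all genes. In PDGFRα reporter+ cells 6 were higher and 4 lower within both numbers, beside 22.1% and 24.8% of all genes, and 4 were higher and 1 lower without overlap, beside 7.59% and 8.10%. The adaptor *Myd88* differed by 0.14 (SE 0.19) and the NF-κB subunit *Rela* by -0.08 (SE 0.28). The largest differences were those of the IκB genes *Nfkbid* (0.41) and *Nfkbie* (0.26), both without overlap and neither past the test.

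Genes known to respond to IL-1 were examined next. They were listed with earlier results of these data known. The paper itself lists *Mmp3* and *Mmp13* among the genes higher in PDGFRα reporter+ cells of these libraries. The shares below thus describe a chosen list and are not an independent test of it. Of 24, 20 had values in all libraries and *Ccl20* and *Csf2* had none, and 0 passed the limma test at an adjusted p of 0.05, beside 3 (*Cxcl1*, *Mmp9* and *Saa3*) with an unadjusted p under 0.05, as had 0.909% of all genes. With the heading number as a block 5 of the 20 passed (*Cxcl1*, *Lcn2*, *Mmp3*, *Mmp13* and *Saa3*), beside 0.201% of all genes, at adjusted p-values in limma from 0.00341 for *Mmp3* to 0.0345 for *Cxcl1*, and 0 passed when the block was fitted without a variance trend. *Csf3*, the gene of granulocyte colony-stimulating factor, had a value in the PDGFRα reporter+ libraries only (-6.92 and -3.32), and *Cxcl2* lacked one in PDGFRα reporter+ library 3. Within both numbers 14 of the 20 were higher in PDGFRα reporter+ cells, compared with 22.1% of all genes, and 0 were lower, compared with 24.8%. Their median log2 difference was 0.81, beside -0.0035 over all genes. *Saa3*, an acute-phase gene, had 6.72 and 8.89 in PDGFRα reporter+ libraries 2 and 3 and 4.75 and 5.47 in PDGFRα reporter- libraries 2 and 3. Its log2 difference of 2.70 (SE 0.78) had the PDGFRα reporter+ libraries above the others without overlap. *Mmp9*, a gelatinase gene, had 3.21 and 3.89 in PDGFRα reporter+ libraries 2 and 3 and 2.18 and 1.41 in PDGFRα reporter- libraries 2 and 3 (log2 difference 1.75, SE 0.37). *Nos2*, the gene of inducible nitric oxide synthase, lay below the lower quartile of the scale in each library. It had -2.33 and -3.075 in PDGFRα reporter+ libraries 2 and 3 and -4.35 and -3.45 in PDGFRα reporter- libraries 2 and 3. It differed by 2.03 within number 2 and 0.37 within number 3 and did not overlap either. In all, 8 of the 20 were higher without overlap and 0 lower, beside 7.59% and 8.10% of all genes. *Saa3*, *Mmp9* and *Nos2* were also past 1 on the log2 scale, as were 2.51% of all genes. *Cxcl5*, a neutrophil chemokine gene, had 6.44 and 7.53 in PDGFRα reporter+ libraries 2 and 3 and 5.78 and 6.29 in PDGFRα reporter- libraries 2 and 3, without overlap (log2 difference 0.95, SE 0.43). *Cxcl1*, another such gene, had 4.94 and 4.90 against 4.14 and 3.72 (log2 difference 0.99, SE 0.19). *Mmp13* (a collagenase) and *Mmp3* (a stromelysin) overlapped between populations, while within numbers 2 and 3 *Mmp13* differed by 1.19 and 1.19 and *Mmp3* by 1.91 and 2.12. Opposite signs within the numbers were found for 6 of the 20, beside 53.1% of all genes. Among these 6 were *Il6* (-0.72 and 2.60) and *Ptgs2*, the gene of cyclooxygenase-2 (-1.16 and 0.59). The macrophage markers were also higher in PDGFRα reporter+ cells, with the summed levels given above, and their part was not tested. Of the 10 fibroblast genes, 3 were higher within both numbers, *Lum* and *Dcn* among them, and 5 were lower, beside 22.1% and 24.8% of all genes.

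**Figure D5:**
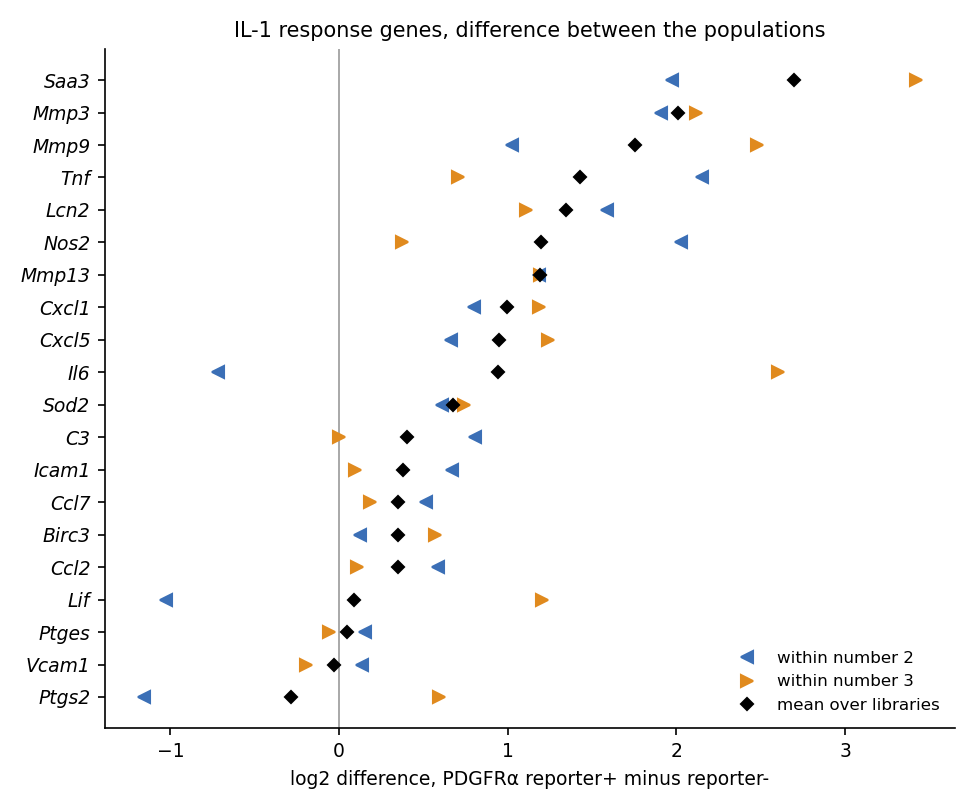
Log2 difference between PDGFRα reporter+ and PDGFRα reporter- cells (x axis) for 20 genes known to respond to IL-1 (y axis), with diamonds for the mean over libraries and triangles for the difference within number 2 and within number 3. The means run from -0.29 for *Ptgs2* to 2.70 for *Saa3*, and 14 genes have both triangles above 0.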

How the data were processed

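The authors made 4 stranded libraries from total RNA (2 per population) for paired-end Illumina sequencing. The submitters' processing notes name bcl2fastq 2.17.1.14, Partek 7.0 and the build GRCm38.p6, whereas the aligner, the counting and the filters are not given in the sources used here. The authors deposited log2 values, quantile normalized across libraries, with 1 value per gene symbol and a blank for no signal. Table headings give the population and a number (2 or 3), so that libraries were assigned to their population only. Each library came from pooled mice, and whether those of a population came from separate pools is not given in the sources used here, so that p-values measure the spread between these libraries.

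The members and gene lists were chosen with earlier results of these data known. For genes with 4 values, populations were compared in R 4.3.3 by limma 3.58.1 (lmFit, eBayes with a variance trend, two-sided, population only) with Benjamini-Hochberg adjustment over all of them and a threshold of 0.05. Named are the 10 members, genes of the pathway lists past 1 on the log2 scale without overlap, the 2 with the highest deposited value and the 2 with the largest difference of a list, and the 3 genes nearest to *Il1rn*, *Il1rl1* and *Il33* (those of *Il1rl1* are not reported here). *Cxcl1*, *Csf3*, *Cxcl2*, *Lcn2*, *Mmp13*, *Il6*, *Ptgs2*, *Casp1*, *Casp4*, *Pycard*, *Il18*, *Il1rapl1* and the genes of the receptor cluster were named after their values were seen, and the motifs were chosen after that too. Symbols *Il36b*, *Il36g*, *Il36a* and *Il36rn* were matched by synonym. Positions and coding transcripts are from GENCODE M21 and upstream windows from RefSeq, both on GRCm38. Python 3.11.15, pandas 2.3.3, numpy 2.4.6 and matplotlib 3.10.9 were used for summaries. Alternatives were a replicate block, no variance trend, a pseudocount of 1, median centering, a mean log2 value of at least 0, blanks set to the lowest value (-10.07), each library left out, and each number alone.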

Additional observations from a re-analysis of the deposited data

How the results depend on the processing

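No gene passed an adjusted p of 0.05 in limma, and this stayed so under 10 of the 11 alternatives, the 4 with a library left out included (0 genes each). With the heading number as a replicate block, 29 genes passed, and 0 did when the block was fitted without a variance trend. The sources used here do not say that the number pairs the libraries. Across genes, deviations from the population means had a correlation of 0.68 between libraries with the same number. No member passed with the block, where the smallest adjusted p was that of *Il33* (0.176), and of the response genes *Cxcl1*, *Mmp3*, *Mmp13*, *Lcn2* and *Saa3* did. Changes of the model, scale, centering and filters left the direction of each member in place (*Il1r2* falls out at a mean of at least 0, and a pseudocount of 1 took its difference from 0.44 to 0.0288). Within number 2 alone the direction turned for *Il1rn* (-0.27), *Il1rl1* (-0.39) and *Nfkbiz* (-0.0445), and within number 3 alone for *Il1rap* (0.0833) and *Nfkbia* (-0.0818). When libraries were left out singly, the direction of all 8 members turned at least once, and log2 differences ranged from -1.11 to 1.36 for *Il1rn*, -0.35 to 1.75 for *Il33*, -0.0291 to 0.42 for *Il1r1*, -0.55 to 1.44 for *Il1r2*, -0.30 to 0.0841 for *Il1rap*, -0.27 to 1.13 for *Il1rl1*, -0.0986 to 0.45 for *Nfkbia* and -0.64 to 1.09 for *Nfkbiz*. Without PDGFRα reporter+ library 2, *Il33* (-0.0340), *Il1rap* (0.0841) and *Nfkbiz* (-0.37) turned, and without PDGFRα reporter+ library 3, *Il1rn* (-1.11), *Il1r1* (-0.0291) and *Il1r2* (-0.11). Without PDGFRα reporter- library 2, *Il1rn* (-0.72), *Il1r2* (-0.55) and *Nfkbia* (-0.0986) turned, and without PDGFRα reporter- library 3, *Il33* (-0.35), *Il1rl1* (-0.27) and *Nfkbiz* (-0.64). The lone library of a population is then assumed to vary like the others, and the cause was not tested. These values also carry the difference between numbers. Depth is unknown and sets no limit that could be given for *Il1a* and *Il1b*.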

Other observations

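Of 13 other genes of the IL-1 family, 7 had values in all 4 libraries and 4 (*Il36a*, *Il36b*, *Il36rn* and *Il1rapl2*) had none. Of the 7, 1 was higher and 1 lower in PDGFRα reporter+ cells without overlap, beside 7.59% and 8.10% of all genes. Within both numbers 3 were higher and 2 lower, beside 22.1% and 24.8% of all genes. The gene lower without overlap was *Il1rapl1*, of the receptor accessory protein family (log2 difference -0.14). *Il18bp*, the secreted inhibitor of IL-18, had log2 values of 1.51 and 0.96 in PDGFRα reporter+ libraries 2 and 3 and of 0.74 and 0.64 in PDGFRα reporter- libraries 2 and 3. It did not overlap between populations (log2 difference 0.55, SE 0.29) and did not pass the limma test (adjusted p = 1). *Il18* itself differed by 0.36 and overlapped, and *Il36g* differed by 0.83 (SE 1.04) at values from -6.13 to -3.59.

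Of 9 genes that process IL-1 cytokines, 4 were higher in PDGFRα reporter+ cells without overlap, beside 7.59% of all genes, and 0 passed the limma test. *Nlrp3*, the sensor of an inflammasome that activates caspase-1, had log2 values of -2.54 and -2.43 in PDGFRα reporter+ libraries 2 and 3 and of -4.83 and -3.97 in PDGFRα reporter- libraries 2 and 3 (log2 difference 1.92, SE 0.59). *Aim2*, *Casp4* and *Pycard* were the other 3, with log2 differences of 0.99, 0.43 and 0.26. *Nlrp3* and *Aim2* lay below the lower quartile of the scale in each library. *Aim2* had -5.48 and -5.12 in PDGFRα reporter+ libraries 2 and 3 and -6.61 and -5.96 in PDGFRα reporter- libraries 2 and 3. *Casp1* overlapped (0.52), and the calpain genes *Capn1* and *Capn2*, which act on IL-1α, differed by -0.09 and -0.28. *Nlrp3* and *Aim2* are known in macrophages, whose markers were also higher in PDGFRα reporter+ libraries, and the part of these cells was not tested.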
